A study of Mus musculus with 4 samples.

Results

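CORIN+ cells from 2 sources were compared: cells grown from mouse embryonic stem cells (ESCs) in culture, and cells taken from the fetal ventral midbrain (VM). The comparison holds every transcript cluster of the array (a probe set that covers a transcript) that is paired with exactly 1 gene symbol, which is 21789 of 28856 clusters and 19938 genes. The value of a cluster is the log2 signal of the ESC-derived array minus that of the fetal array, so a positive difference means a higher signal in culture and a difference of 1 is 2-fold. Values given for named populations are log2 signals, and single signed values are log2 differences of the CORIN+ pair unless the CORIN- pair is named.

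The ESC-derived cells came from LMX1A::GFP knock-in ESCs on the 129SVEV background, in which GFP was placed at the Lmx1a locus by homologous recombination, and the sources name no number of clones. The ESCs were kept on fibroblast feeder cells, differentiated as floating aggregates (SFEBq) with added SHH, FGF8b and, later, ascorbic acid and BDNF, and sorted on day 9 as CORIN+LMX1A::GFP+ cells. The fetal cells came from E11.5 VM of C57BL/6N mice and were sorted as CORIN+ alone, with no reporter. Each population had at least 100000 sorted cells and 1 array, so a difference has no replicate, no error and no test. Source, strain, stage, the extra sort on LMX1A::GFP and the handling of each sample differ together and cannot be told apart in these arrays. A second pair, ESC-derived CORIN-LMX1A::GFP+ cells and fetal VM CORIN- cells, shares no array with the first and is given beside it. Below, the 4 populations are called ESC CORIN+, VM CORIN+, ESC CORIN- and VM CORIN-, and both ESC populations were LMX1A::GFP+. In sorted bulk samples, fewer cells of a type and less RNA per cell cannot be told apart.

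The floor plate is the strip of cells along the ventral midline of the neural tube that secretes SHH and other guidance and patterning factors. In the midbrain, unlike the spinal cord, floor plate cells that express Lmx1a and Foxa2 are themselves the progenitors of dopaminergic neurons. CORIN is a serine protease anchored in the membrane of these floor plate cells, and an antibody against it lets them be collected alive.

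Between the 2 CORIN+ arrays, floor plate genes, motile cilium genes and genes of glycolysis and hypoxia had, by list median, the higher signals in culture. Genes of neurons, of other midbrain and forebrain regions, of mesenchyme and of macrophages had, by list median, the higher signals in the fetal cells. Of 19938 genes, 594 (2.98%) were higher by 2-fold or more in ESC CORIN+ cells, 872 (4.37%) were lower by 2-fold or more and 18472 differed by less. In clusters, 662 were higher by 2-fold or more and 962 lower by 2-fold or more. The median difference over all genes was 0.02, with a scaled median absolute deviation of 0.28, and the signals of the 2 arrays correlated across clusters at a Pearson r of 0.968. Median log2 signals of the 4 arrays lay between 7.97 and 8.03. In the CORIN- pair, 906 genes (4.54%) were higher by 2-fold or more in culture and 702 (3.52%) lower by 2-fold or more.

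**Figure D1:**
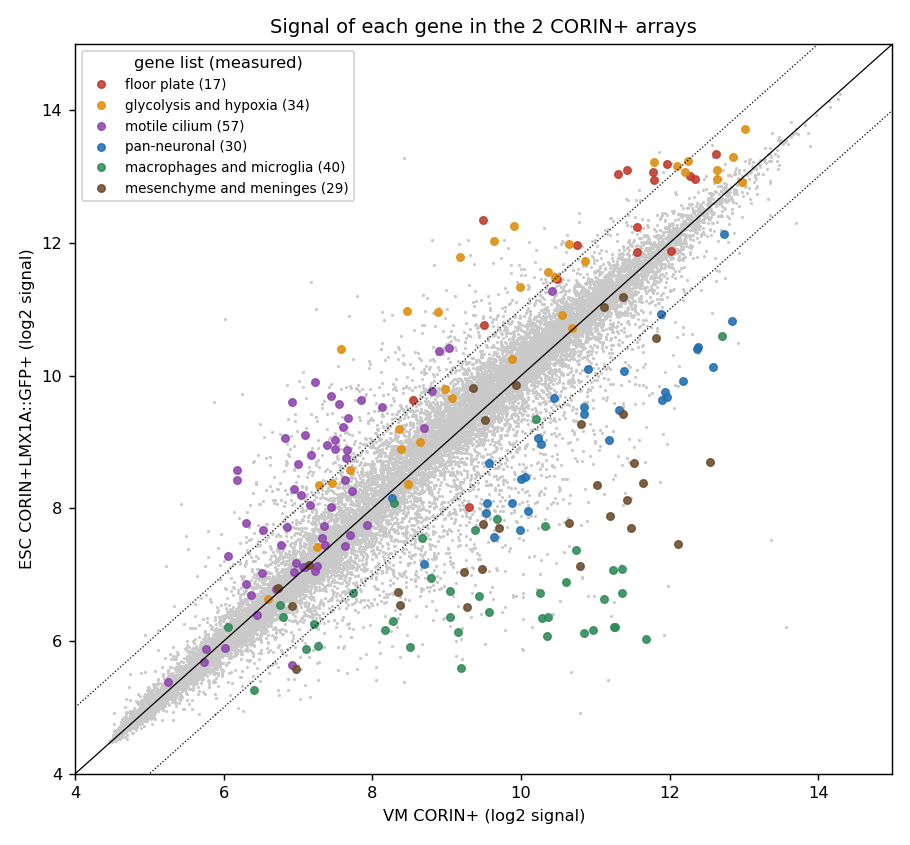
Log2 signal of each gene in VM CORIN+ cells (horizontal) and ESC CORIN+LMX1A::GFP+ cells (vertical), 1 array each, with 6 gene lists in colour; the solid line marks equal signal and the dotted lines 2-fold. Most macrophage, mesenchyme and neuronal genes (34 of 40, 21 of 29 and 24 of 30) lie below the lower dotted line, and most floor plate, glycolysis and cilium genes above equality.

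Of the 20 genes with the highest difference, all 20 were higher by 2-fold or more in the CORIN- pair as well. Car4, a membrane-anchored carbonic anhydrase, led with a log2 signal of 13.27 in ESC CORIN+, 8.43 in VM CORIN+, 12.995 in ESC CORIN- and 8.06 in VM CORIN- cells. Its difference of 4.84 is 28.7-fold. Kcnma1, which encodes the pore of a calcium-activated potassium channel, was at 10.85 in ESC CORIN+, 6.02 in VM CORIN+, 11.03 in ESC CORIN- and 6.25 in VM CORIN- cells. Rbp4, the carrier of retinol in blood, was at 11.42 in ESC CORIN+, 7.17 in VM CORIN+, 10.23 in ESC CORIN- and 6.92 in VM CORIN- cells. In each of the 3 the fetal signals were near the array medians or below. Epo, the hormone erythropoietin and a classic hypoxia target, was at 9.72 in ESC CORIN+, 6.25 in VM CORIN+, 9.26 in ESC CORIN- and 6.65 in VM CORIN- cells. Dkk1, a secreted WNT inhibitor, was at 11.98 in ESC CORIN+, 9.16 in VM CORIN+, 12.36 in ESC CORIN- and 8.55 in VM CORIN- cells. The neural transcription factor gene Ferd3l, a floor plate gene, was at 12.35 in ESC CORIN+, 9.49 in VM CORIN+, 11.15 in ESC CORIN- and 7.53 in VM CORIN- cells. All 6 genes were high in both ESC arrays, and of their fetal signals only those of Dkk1 and Ferd3l in VM CORIN+ cells exceeded 9. Among the others were the uridine phosphorylase Upp1 (10.6-fold), the monoamine oxidase Maob (9.28-fold), the tight junction gene Cldn6 (7.5-fold), the aldolase Aldoc (7.03-fold), the p53-induced receptor Eda2r (6.93-fold) and the metalloreductase Steap2 (6.72-fold). The remaining 8 were Sertm1, C330024D21Rik, Cmtm8, Pkd1l1, 1700007K13Rik, Trabd2b, Mir218-1 and A830018L16Rik, between 6.79-fold and 13.5-fold.

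The 20 lowest genes were of several kinds, and 7 of them were lower by 2-fold or more in the CORIN- pair too. Of the 20, 9 are on the list of macrophage genes, 3 on the erythroid list and 1 on the endothelial list. Hbb-y, an embryonic globin, was lowest of all, at 6.21 in ESC CORIN+, 13.57 in VM CORIN+, 6.39 in ESC CORIN- and 12.21 in VM CORIN- cells. The embryonic globins Hba-x and Hbb-bh1 had differences of -5.84 and -5.76. Ly86, a partner of a myeloid receptor, was at 6.03 in ESC CORIN+, 11.69 in VM CORIN+, 6.14 in ESC CORIN- and 6.11 in VM CORIN- cells, which is high in VM CORIN+ cells alone. Ccl3, C3ar1, C1qb, Mrc1, F13a1, Csf1r, Fcer1g, Laptm5, Cd53 and Ms4a6c, genes of macrophages and other leukocytes, had the same shape, with differences from -5.15 to -4.27 in the CORIN+ pair and from -0.37 to 0.18 in the CORIN- pair. Arhgdib, a gene of blood cells, and Cdh5, the cadherin of endothelium, differed by -4.82 and -4.30. The midbrain and hindbrain gene En2 and the dorsal neural and mesenchymal gene Zic1 had differences of -4.67 and -4.64, and of -4.09 and -2.78 in the CORIN- pair. Xist and AI506816 complete the 20, with -5.83 and -5.88.

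**Figure D2:**
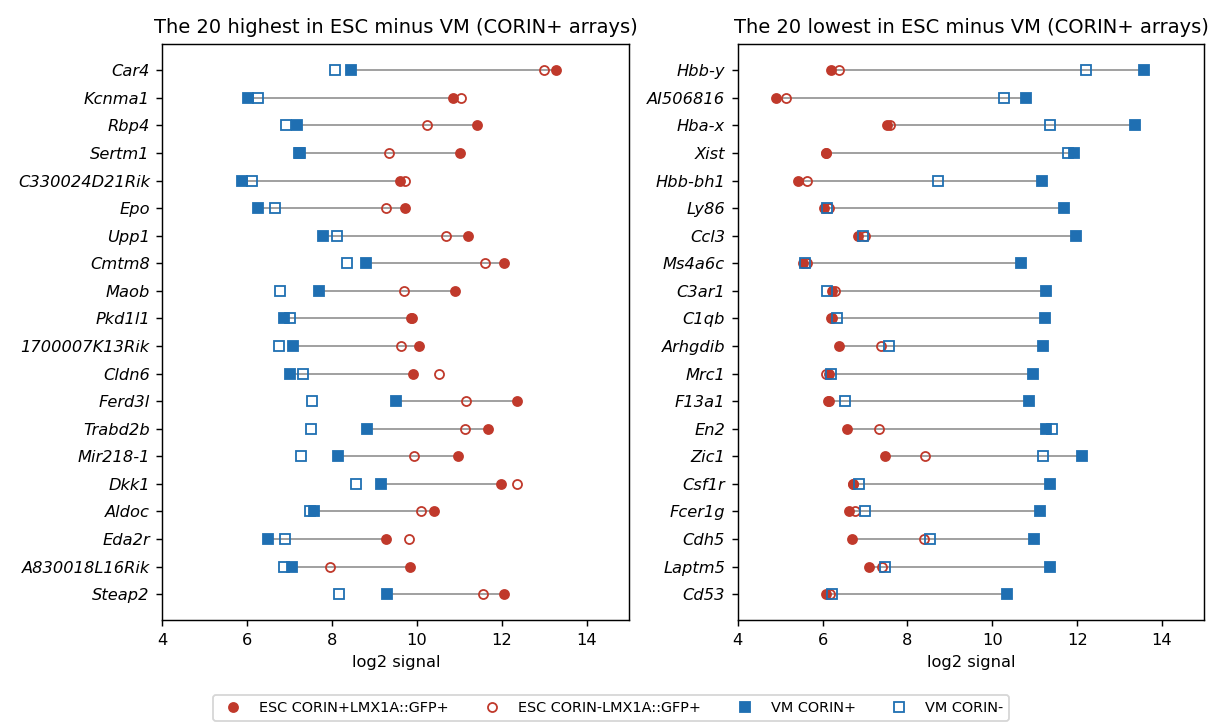
Log2 signal in all 4 arrays of the 20 genes highest (left) and the 20 lowest (right) in ESC CORIN+LMX1A::GFP+ minus VM CORIN+; circles are ESC populations, squares fetal ones, filled symbols CORIN+ and open ones CORIN-. On the left both circles lie right of both squares, while on the right the macrophage genes are high in the filled square alone.

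Floor plate genes were higher in culture. Of 17 measured floor plate genes, 9 were higher by 2-fold or more in ESC CORIN+ cells, 1 was lower by 2-fold or more and 7 differed by less, with a median of 1.09 against 0.02 over all genes. The 9 include Corin, Lrtm1 and Ferd3l, which the study listed as raised in CORIN+ cells on these same arrays. For these members the count is no independent evidence of direction. All 17 lay above the array median on both CORIN+ arrays, as their labels call for. Of all 19938 genes, 11041 did on ESC CORIN+ and 11054 on VM CORIN+. Corin itself, the gene behind the sort, was at 13.10 in ESC CORIN+, 11.43 in VM CORIN+, 11.13 in ESC CORIN- and 7.28 in VM CORIN- cells. ESC CORIN- cells therefore had nearly the Corin signal of VM CORIN+ cells, and VM CORIN- cells stood far below. Shh, the ventralizing signal of the floor plate, was at 13.04 in ESC CORIN+, 11.30 in VM CORIN+, 12.88 in ESC CORIN- and 10.95 in VM CORIN- cells, with both ESC arrays above both fetal arrays. Foxa1 and Foxa2, the forkhead factors that specify the floor plate, were 2.46-fold and 1.97-fold higher, and Nkx6-1, a ventral homeobox gene, was 2.39-fold higher. Ntn1, the attractant of commissural axons, was at 13.19 in ESC CORIN+, 11.97 in VM CORIN+, 12.45 in ESC CORIN- and 11.23 in VM CORIN- cells. Slit1, a midline repellent, Chrd, a BMP inhibitor, and Lrtm1, a leucine-rich repeat membrane protein, were 2.22-fold, 2.13-fold and 2.34-fold higher. Slit2, Sulf1, Rfx4, Spon1 and Bmp1 lay between 1.24-fold and 1.66-fold. Alcam, a cell adhesion molecule also used for sorting midbrain progenitors, was at 11.88 in ESC CORIN+ and 12.02 in VM CORIN+ cells. Nkx2-2, which marks the zone just lateral to the floor plate, was the exception, at 8.02 in ESC CORIN+, 9.30 in VM CORIN+, 8.16 in ESC CORIN- and 10.64 in VM CORIN- cells. It was lower in both ESC arrays than in both fetal ones.

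In the CORIN- pair, 11 of the 17 floor plate genes were higher by 2-fold or more in culture and the median was 1.22. Since ESC CORIN- cells were selected for LMX1A::GFP and VM CORIN- cells were not, the sorts of that pair differ in more than their source. The VM CORIN+ array also had raised signals of macrophage, mesenchyme and some endothelial genes, described below. Whether cells of those types had a part in the floor plate difference was not tested.

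**Figure D3:**
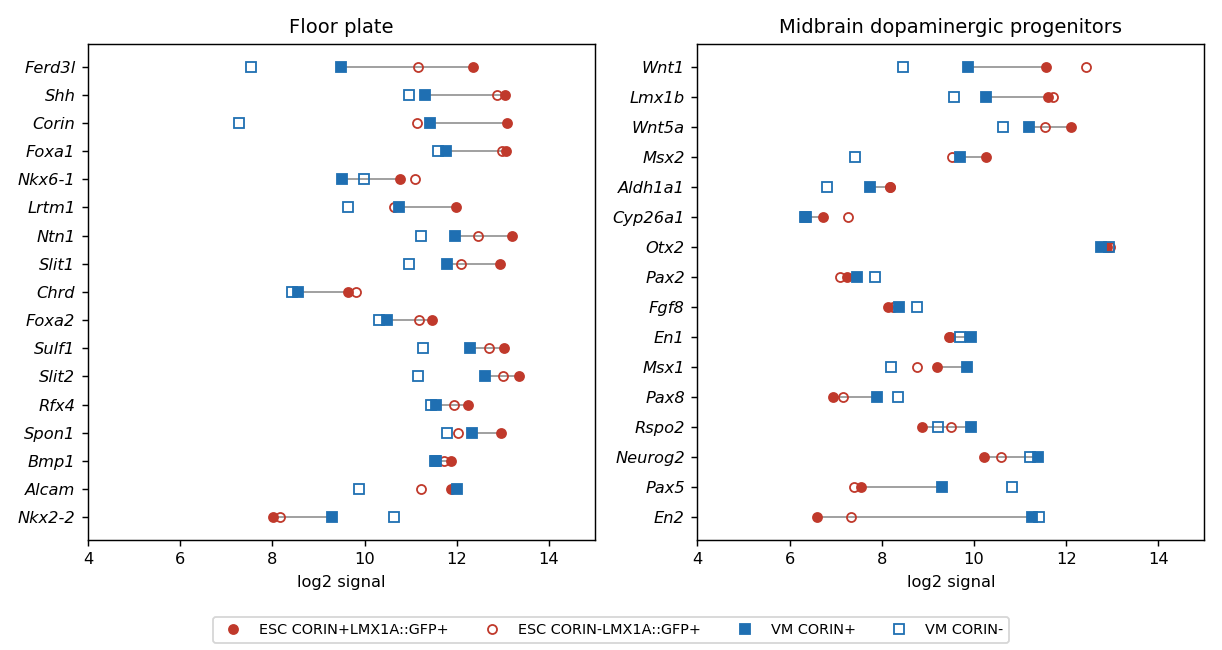
Log2 signal in the 4 arrays of the measured floor plate genes (left) and midbrain dopaminergic progenitor genes (right), ordered by the CORIN+ difference; circles are ESC populations, squares fetal ones, filled symbols CORIN+ and open ones CORIN-. Filled circles lie right of filled squares for 15 of 17 floor plate genes, and En2 and Pax5 stand out on the right panel with both circles far below both squares.

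Genes of the midbrain dopaminergic progenitor went both ways. Of 16 measured, 2 were higher by 2-fold or more in culture, 4 were lower by 2-fold or more, and the median was -0.23. Lmx1a, the gene of the reporter, was not analysed here because no cluster is paired with it alone. Otx2, the homeobox gene of forebrain and midbrain, was at 12.89 in ESC CORIN+, 12.76 in VM CORIN+, 12.95 in ESC CORIN- and 12.93 in VM CORIN- cells, nearly level over all 4. Lmx1b, the close relative of Lmx1a, was at 11.61 in ESC CORIN+, 10.26 in VM CORIN+, 11.72 in ESC CORIN- and 9.56 in VM CORIN- cells. Wnt1, a signal of the midbrain floor plate and of the boundary with the hindbrain, was at 11.55 in ESC CORIN+, 9.86 in VM CORIN+, 12.43 in ESC CORIN- and 8.47 in VM CORIN- cells, and the ESC CORIN- cells were the highest. En1 differed by -0.44, but its paralogue En2 was at 6.59 in ESC CORIN+, 11.26 in VM CORIN+, 7.32 in ESC CORIN- and 11.42 in VM CORIN- cells. Pax5, Pax8 and Pax2, paired-box genes of the midbrain-hindbrain region, had differences of -1.77, -0.96 and -0.21. Neurog2, a proneural factor of dopaminergic progenitors, differed by -1.18 and the WNT agonist Rspo2 by -1.07. Msx1, Fgf8, Cyp26a1, Aldh1a1, Msx2 and Wnt5a lay within 2-fold, between -0.64 and 0.92.

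Postmitotic dopaminergic genes were level or lower in culture, 0 of 19 higher by 2-fold or more and 7 lower by 2-fold or more (median -0.31). Nr4a2, the factor that postmitotic dopaminergic precursors need, was at 10.62 in ESC CORIN+, 12.30 in VM CORIN+, 10.91 in ESC CORIN- and 11.66 in VM CORIN- cells. Ebf1, Ebf2 and Ebf3, factors of newborn neurons, had differences of -2.54, -2.01 and -1.45, and Dlk1, a Notch-like ligand, one of -2.26. The genes of the dopamine phenotype differed little. Th, tyrosine hydroxylase, was at 11.10 in ESC CORIN+, 10.89 in VM CORIN+, 10.49 in ESC CORIN- and 10.02 in VM CORIN- cells. Ddc, Slc18a2 and Slc6a3, the decarboxylase and the vesicular and membrane transporters, had differences of 0.39, 0.37 and -0.13, and Pitx3, a factor of maturing dopaminergic neurons, one of -0.45. Slc6a3 (7.03 in ESC CORIN+, 7.16 in VM CORIN+) and Pitx3 (7.77 and 8.22) had signals near or below the array medians. Without detection calls, their small differences do not show that either array detected them.

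Of the 16 genes that the study listed as raised in CORIN+ over CORIN- cells in both sources, 11 were higher by 2-fold or more in culture, none was lower by 2-fold or more and the median was 1.20. The study chose this list on these same arrays, so the count is no independent evidence of direction. With Apela, which the study's list does not hold, the counts were 12 of 17 and the median 1.22. Hpse, a heparan sulfate-cleaving enzyme, was at 10.84 in ESC CORIN+, 8.15 in VM CORIN+, 9.74 in ESC CORIN- and 6.73 in VM CORIN- cells. Apela, a small secreted peptide ligand, was at 12.22 in ESC CORIN+, 10.32 in VM CORIN+, 11.06 in ESC CORIN- and 8.43 in VM CORIN- cells. Lrtm1 was at 11.97 in ESC CORIN+, 10.75 in VM CORIN+, 10.63 in ESC CORIN- and 9.65 in VM CORIN- cells, and Folr1, the folate receptor, at 10.97 in ESC CORIN+, 9.79 in VM CORIN+, 9.96 in ESC CORIN- and 8.51 in VM CORIN- cells. For both genes each source had the higher signal in its CORIN+ array, and culture exceeded fetus in each sort. Jhy, St3gal6, Dkk3, Mylip, Unc13c and Prss23 were between 2.25-fold and 3.23-fold higher. Members that differed by less than 2-fold were Anxa2 (0.76), Tm4sf1 (-0.23) and Tacr1 (-0.06), together with Sv2b (0.52) and Lpl (0.80).

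Components of the SHH pathway differed in opposite ways. Although Shh was 3.35-fold higher in culture, the transcriptional effectors Gli2 and Gli3 differed by -1.36 and -1.44 and Gli1 by -0.67. The co-receptors Boc and Gas1 had differences of -1.42 and -1.50. Ptch1, the receptor and a feedback target, was at 12.42 in ESC CORIN+, 12.14 in VM CORIN+, 12.84 in ESC CORIN- and 12.31 in VM CORIN- cells, and the transducer Smo differed by 0.32. Over all genes, 2.98% were higher and 4.37% lower by 2-fold or more in the CORIN+ pair. Of 20 SHH pathway genes (median -0.31), 2 were higher by 2-fold or more and 7 lower by 2-fold or more in culture. Olig2, a target in motor neuron progenitors, had the lowest difference, -1.67. Of 46 WNT genes, 3 were higher by 2-fold or more and 9 lower by 2-fold or more (median -0.02). Besides Wnt1, the inhibitors Dkk1 and Dkk3 were higher, and the ligands Wnt8b, Wnt7b and Wnt7a and the agonists Rspo1 and Rspo3 lower, from -2.56 for Wnt8b to -1.52 for Rspo1. The general WNT target Axin2 was within 2-fold, with a difference of -0.28. Of 30 FGF genes (median 0.08), 3 were higher by 2-fold or more and 3 lower by 2-fold or more. The receptor Fgfr2 and the feedback phosphatase Dusp6 had differences of 1.19 and 1.14, and the floor plate gene Lrtm1, also on this list, was the third. Cnpy1, a gene of the midbrain-hindbrain boundary, differed by -3.05 and the ligands Fgf15 and Fgf18 by -2.06 and -1.12. Of 39 BMP and TGF-beta genes (median 0.05), 4 were higher by 2-fold or more and 3 lower by 2-fold or more. Tgfb3, a ligand, was at 11.37 in ESC CORIN+, 9.30 in VM CORIN+, 11.27 in ESC CORIN- and 8.40 in VM CORIN- cells, Tgfb2 differed by 1.61 and Bmp2 by 1.14, with Chrd as the fourth. The ligand antagonist Fst and the ligand Tgfb1 were lower (-1.64 and -1.41). Id4, a helix-loop-helix inhibitor, was the lowest of them, at 8.22 in ESC CORIN+, 11.11 in VM CORIN+, 7.92 in ESC CORIN- and 11.02 in VM CORIN- cells, with both ESC arrays far below both fetal arrays.

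Neuronal genes were lower in culture throughout the list. All 30 pan-neuronal genes had the lower signal in ESC CORIN+ cells, 24 of them by at least 2-fold, and the median was -1.58. Tubb3, the neuronal beta-tubulin, was at 9.76 in ESC CORIN+, 11.93 in VM CORIN+, 10.38 in ESC CORIN- and 12.50 in VM CORIN- cells. Ina, an intermediate filament of young neurons, was at 10.14 in ESC CORIN+, 12.59 in VM CORIN+, 10.79 in ESC CORIN- and 13.26 in VM CORIN- cells. Stmn2, a microtubule regulator of growing axons, was at 10.83 in ESC CORIN+, 12.84 in VM CORIN+, 11.73 in ESC CORIN- and 13.37 in VM CORIN- cells. In all 3 genes both fetal arrays exceeded both ESC arrays. Dcx, Elavl3, Celf3, Stmn3 and Syt4 had differences from -2.31 to -1.95. The smallest difference was that of Nefh, -0.10. All 30 were also lower in culture in the CORIN- pair, 25 of them by at least 2-fold (median -1.74), where the sorts differed in LMX1A::GFP as well.

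The steps before neuronal differentiation gave a mixed picture. Of 24 proneural and Notch genes (median -0.74), 11 were lower by 2-fold or more in culture and 2 higher by 2-fold or more. Hes5, a Notch target of neural progenitors, was at 9.57 in ESC CORIN+, 11.54 in VM CORIN+, 8.74 in ESC CORIN- and 11.51 in VM CORIN- cells. Nrarp, another Notch target, had a difference of -1.81, the proneural genes Neurod4, Neurog1 and Neurod1 differences of -1.89, -1.45 and -1.29, and the ligands Dll3 and Dll1 of -1.37 and -1.05. Hey2, a target also used by vessels, differed by -2.12 in the CORIN+ pair and by -0.01 in the CORIN- pair. Hes1, a repressor that also acts apart from Notch in boundary and floor plate cells, was the opposite, at 10.75 in ESC CORIN+, 9.44 in VM CORIN+, 10.76 in ESC CORIN- and 9.08 in VM CORIN- cells, and the receptor Notch2 was 2.14-fold higher. Of 23 radial glia and progenitor genes (median -0.26), 6 were lower by 2-fold or more and 1, Aldoc, was higher by 2-fold or more. Pax6 was at 6.52 in ESC CORIN+, 9.79 in VM CORIN+, 6.67 in ESC CORIN- and 11.01 in VM CORIN- cells, and Fabp7, a fatty acid-binding protein of radial glia, at 12.30 in ESC CORIN+, 13.70 in VM CORIN+, 11.59 in ESC CORIN- and 13.79 in VM CORIN- cells. Slc1a2 and Nfib differed by -2.07 and -1.79. Tnc, a matrix glycoprotein, was at 6.73 in ESC CORIN+, 10.03 in VM CORIN+, 8.04 in ESC CORIN- and 7.87 in VM CORIN- cells, so its signal was raised in VM CORIN+ cells alone. Sox2, Vim, Msi1 and Cdh2, broad neural progenitor genes, were within 2-fold (0.66, -0.05, 0.11 and 0.35). Cell cycle genes were also close, with 0 of 39 different by 2-fold or more in either direction and a median of 0.17. Mki67, a gene of dividing cells, was at 12.28 in culture and 12.34 in the fetal cells, and the outermost were Cdk6 (0.97) and Ccnd1 (-0.74).

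Lists of other midbrain neurons, forebrain, roof plate and neural crest had medians below 0 in the CORIN+ pair, while hindbrain genes went both ways. Of 22 genes of GABAergic and glutamatergic midbrain neurons, 14 were lower by 2-fold or more and 1, Nkx6-1, which is also on the floor plate list, higher by 2-fold or more (median -1.36). Gad2, which makes GABA, was at 6.43 in ESC CORIN+, 9.75 in VM CORIN+, 6.25 in ESC CORIN- and 11.54 in VM CORIN- cells. The GABAergic factors Gata3, Gata2 and Lhx1 had differences of -2.78, -2.42 and -2.75, and Slc17a6, the vesicular glutamate transporter, one of -1.98. Of 31 forebrain and diencephalon genes, 14 were lower by 2-fold or more in each pair, 10 of them in both (median -0.97 in the CORIN+ pair, -0.96 in the CORIN- pair). Lhx9 was at 6.96 in ESC CORIN+, 10.82 in VM CORIN+, 7.45 in ESC CORIN- and 11.52 in VM CORIN- cells, Lhx2 and Emx2 differed by -3.32 and -2.79, and Dlx2 and Barhl1 by -2.25 and -2.31. Dbx1 and Barhl2 differed by -2.21 and -1.79 in the CORIN+ pair, and by -0.13 and 0.12 in the CORIN- pair. Of 18 roof plate genes (median -0.78), 8 were lower by 2-fold or more and none higher by 2-fold or more. In the CORIN- pair the roof plate median was -0.19, and 2 of the 18 were lower by 2-fold or more in both pairs. The zinc-finger genes Zic1, Zic2, Zic4 and Zic5 had differences of -4.64, -3.47, -2.63 and -2.10. Zic2 was at 8.41 in ESC CORIN+, 11.88 in VM CORIN+, 9.62 in ESC CORIN- and 10.61 in VM CORIN- cells. Of 25 genes of the hindbrain and of serotonergic neurons, 4 were lower by 2-fold or more and 2 higher by 2-fold or more, with a median of 0.00. The 4 were Gata3, Gata2, Fgf15 and Nkx6-2, and the 2 were Lmx1b and Hoxb2, the latter at 8.12 and 7.10. The other Hox genes measured differed by at most 0.66, at signals of at most 8.30. Of 17 neural crest genes (median -0.55), 7 were lower by 2-fold or more, with Tfap2b, also a gene of dorsal midbrain neurons, at 6.22 in ESC CORIN+, 10.15 in VM CORIN+, 6.23 in ESC CORIN- and 10.91 in VM CORIN- cells. In the CORIN- pair the neural crest median was 0.14, and 3 of the 17 were lower by 2-fold or more in both pairs. Snai1 and Snai2 differed by -1.73 and -1.11 in the CORIN+ pair, and by 0.36 and 0.63 in the CORIN- pair.

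Macrophage and microglia genes set VM CORIN+ apart from the other 3 arrays. Of 40 macrophage and microglia genes, 34 were lower by 2-fold or more in ESC CORIN+ cells and the median was -2.64, while in the CORIN- pair 0 of 40 were different by 2-fold or more and the median was -0.11. On the VM CORIN+ array, 32 of the 40 lay above the array median, and on each of the other arrays 3 did. Of all 19938 genes, 11054 did on VM CORIN+, 11041 on ESC CORIN+, 11058 on ESC CORIN- and 10996 on VM CORIN-. Their summed linear signal was 47737 in VM CORIN+ cells, 6181 in ESC CORIN+, 6040 in ESC CORIN- and 5792 in VM CORIN- cells. Csf1r, the growth factor receptor of the lineage, was at 6.72 in ESC CORIN+, 11.36 in VM CORIN+, 6.73 in ESC CORIN- and 6.85 in VM CORIN- cells. The microglial genes Cx3cr1 and P2ry12 differed by -2.58 and -1.999, and Spi1, the master factor of myeloid cells, by -3.01. These genes were high in 1 array of 4, and no detection calls were used that would show whether the low signals are background.

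Mesenchyme and meninges genes followed the same pattern with some exceptions. Of 29 measured, 21 were lower by 2-fold or more in ESC CORIN+ cells (median -1.95), whereas in the CORIN- pair 7 were higher by 2-fold or more in culture and 1 lower by 2-fold or more (median 0.13). Their summed linear signal was 49946 in VM CORIN+ cells against 13848, 20280 and 15933 in ESC CORIN+, ESC CORIN- and VM CORIN- cells. Lum, a matrix proteoglycan of fibroblasts, was at 7.70 in ESC CORIN+, 11.49 in VM CORIN+, 9.10 in ESC CORIN- and 8.74 in VM CORIN- cells. Pdgfra, a receptor of mesenchymal cells, was at 7.89 in ESC CORIN+, 11.19 in VM CORIN+, 8.86 in ESC CORIN- and 8.84 in VM CORIN- cells. Bgn, Tbx18 and Osr1 had differences of -3.85, -3.67 and -3.30. Of 47 matrix genes (median -0.96), 22 were lower by 2-fold or more and 2 higher by 2-fold or more in culture. The fibrillar collagens Col1a1, Col1a2 and Col3a1 differed by -2.85, -3.25 and -2.67, and Col12a1 by -3.25. The basement membrane chain Lama5 and the protease Adamts1 were the 2 that went the other way (1.54 and 1.02). Of the 47 in the CORIN- pair, none was lower by 2-fold or more and 13 were higher by 2-fold or more.

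Endothelial genes were raised in VM CORIN+ cells in part. Of 30 (median -0.39), 7 were lower by 2-fold or more in ESC CORIN+ cells and none higher, with Cdh5 at 6.68 in ESC CORIN+, 10.98 in VM CORIN+, 8.38 in ESC CORIN- and 8.54 in VM CORIN- cells. Lyve1, shared by lymphatic endothelium and macrophages, differed by -3.92, and Emcn, Cd34 and Eng by -2.84, -2.73 and -2.06. The endothelial genes Kdr, Cldn5 and Tie1 were within 2-fold, with differences of 0.55, -0.40 and -0.53. The summed signal of the list was 11580 in VM CORIN+ cells against 5652, 7172 and 5474 in ESC CORIN+, ESC CORIN- and VM CORIN- cells. Of 15 pericyte genes (median -0.24), 1 was lower by 2-fold or more, Abcc9 (-1.95). Of 16 erythroid genes (median -0.66), 6 were lower by 2-fold or more, as were 4 in the CORIN- pair. Alas2, which starts heme synthesis in red cells, was at 6.75 in ESC CORIN+, 8.76 in VM CORIN+, 6.71 in ESC CORIN- and 7.47 in VM CORIN- cells. The summed erythroid signal was 30376 in VM CORIN+ and 10727 in VM CORIN- cells, and 3355 and 3381 in the ESC populations. Of 30 immediate-early genes (median -0.11), 4 were lower by 2-fold or more in ESC CORIN+ cells and 2 higher by 2-fold or more. Fos was at 7.89 in ESC CORIN+, 10.001 in VM CORIN+, 8.03 in ESC CORIN- and 7.86 in VM CORIN- cells, high in VM CORIN+ cells alone. Zfp36, Fosb and Dusp1 differed by -2.13, -1.95 and -1.16, and Ccn2 and Nr4a3 went the other way (1.68 and 1.001). How far the macrophage, mesenchyme, endothelial and erythroid signals of the VM CORIN+ array lower its neural signals was not tested.

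Motile cilium genes were higher in culture. The factors Foxj1 and Rfx2 and Rfx3 are known to switch on the genes that build the axoneme of motile cilia, which floor plate cells of vertebrates can carry. Of 57 measured genes, 26 were higher by 2-fold or more in ESC CORIN+ cells, 1 was lower by 2-fold or more and the median was 0.87. The CORIN- pair had 7 that were higher by 2-fold or more and a median of 0.30. On the ESC CORIN+ array 30 of the 57 lay above the array median, against 18 on ESC CORIN-, 6 on VM CORIN+ and 7 on VM CORIN-. Of all 19938 genes, 11041, 11058, 11054 and 10996 did in the same order. The cilium list was therefore not above the share of all genes on the ESC CORIN+ array, and was below it on the fetal arrays. Foxj1, the switch of the programme, was at 10.37 in ESC CORIN+, 8.90 in VM CORIN+, 9.30 in ESC CORIN- and 8.61 in VM CORIN- cells. Dnah11, an axonemal dynein heavy chain, was at 9.61 in ESC CORIN+, 6.91 in VM CORIN+, 8.05 in ESC CORIN- and 6.49 in VM CORIN- cells. Cfap54, of the central apparatus, was at 9.91 in ESC CORIN+, 7.23 in VM CORIN+, 9.02 in ESC CORIN- and 7.60 in VM CORIN- cells. Each of the 3 was highest in ESC CORIN+ cells. Rsph4a, a radial spoke gene, Enkur and Dnajb13 were 5.28-fold, 4.77-fold and 4.75-fold higher. Rfx2 and Rfx3 differed by 1.39 and 0.87. The genes of multiciliated cell fate did not take part, with differences of -0.09 for Mcidas and -0.16 for Ccno, and Gmnc, of the same group, was the 1 gene lower by 2-fold or more (-1.28). Many members had signals near or below the array median in all 4 arrays, such as Stoml3 (6.39 and 6.45).

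Glycolysis and hypoxia genes were higher in culture in both pairs. Of 34 measured, 13 were higher by 2-fold or more in ESC CORIN+ cells, none was lower by 2-fold or more and the median was 0.87. In the CORIN- pair 16 were, none was lower to that extent and the median was 0.89. Slc2a3, a high-affinity glucose transporter, was at 11.78 in ESC CORIN+, 9.18 in VM CORIN+, 12.42 in ESC CORIN- and 9.18 in VM CORIN- cells. Egln3, an oxygen-sensing prolyl hydroxylase that is itself induced by hypoxia, was at 10.97 in ESC CORIN+, 8.46 in VM CORIN+, 11.33 in ESC CORIN- and 8.90 in VM CORIN- cells. Slc16a3, which exports lactate, was at 12.02 in ESC CORIN+, 9.64 in VM CORIN+, 11.96 in ESC CORIN- and 9.35 in VM CORIN- cells. These are steps of glucose entry, oxygen sensing and lactate exit. Bnip3, a mitophagy receptor, was at 12.25 in ESC CORIN+, 9.90 in VM CORIN+, 12.17 in ESC CORIN- and 10.04 in VM CORIN- cells. Pdk1, a kinase that inhibits pyruvate dehydrogenase, was at 10.96 in ESC CORIN+, 8.88 in VM CORIN+, 10.69 in ESC CORIN- and 8.14 in VM CORIN- cells. For each of the 5 the lower ESC array exceeded the higher fetal array. The general glycolytic enzymes differed by less, 1.06 for Tpi1, 0.99 for Aldoa, 0.87 for Pgk1, 0.71 for Ldha and 0.32 for Pkm. Not all hypoxia targets took part, since Car9 and Adm had low signals on both arrays (6.63 and 6.60, 7.41 and 7.25) and Ndrg1 differed by -0.12.

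Because these 2 lists had many members on the higher side, their promoters were read for the letters that their factors are known to bind. The RefSeq windows (GRCm38.p6) run from 250 bases before to 50 after a start. ACGTG or its reverse complement CACGT, the core of the hypoxia response element, was in 26 of 44 windows of the glycolysis and hypoxia list (59.1%) and in 19.6% of all 32851 windows. By gene it was found for 9 of 12 members higher by 2-fold or more in culture and for 14 of 19 others with a window, which are nearly equal shares (75.0% and 73.7%). GTTGCC or GGCAAC, letters that Rfx factors bind, was in 22 of 53 windows of the motile cilium list (41.5%) and in 12.5% of all windows. It was found for 7 of 21 members higher by 2-fold or more and for 14 of 26 others (33.3% and 53.8%). Both lists were made of genes already known for glycolysis, hypoxia or motile cilia. A share above that of all windows can follow from that choice and is no result of these arrays. A match is a description of the letters and no evidence of binding. The 250 bases before the most upstream start are shown for the 4 hypoxia genes and the 2 cilium genes with the highest differences among those that hold the letters there, with the matches in capitals.
Egln3, chr12:54203875-54204124, minus strand: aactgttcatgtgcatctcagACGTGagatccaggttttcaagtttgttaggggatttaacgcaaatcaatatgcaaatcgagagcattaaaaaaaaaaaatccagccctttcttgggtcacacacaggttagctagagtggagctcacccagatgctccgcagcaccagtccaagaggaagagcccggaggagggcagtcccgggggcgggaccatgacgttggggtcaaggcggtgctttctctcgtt
Slc16a3, chr11:120948817-120949066, plus strand: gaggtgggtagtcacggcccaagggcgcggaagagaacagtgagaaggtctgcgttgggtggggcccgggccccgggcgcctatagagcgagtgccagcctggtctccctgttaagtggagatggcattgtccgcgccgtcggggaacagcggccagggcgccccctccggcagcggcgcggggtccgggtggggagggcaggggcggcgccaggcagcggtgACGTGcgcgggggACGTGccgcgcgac
Bnip3, chr7:138909507-138909756, minus strand: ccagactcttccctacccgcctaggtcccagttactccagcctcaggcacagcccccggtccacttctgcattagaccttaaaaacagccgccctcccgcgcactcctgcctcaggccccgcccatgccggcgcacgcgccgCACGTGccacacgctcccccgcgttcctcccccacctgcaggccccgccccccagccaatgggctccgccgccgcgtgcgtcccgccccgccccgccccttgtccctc
Slc2a1, chr4:119108495-119108744, plus strand: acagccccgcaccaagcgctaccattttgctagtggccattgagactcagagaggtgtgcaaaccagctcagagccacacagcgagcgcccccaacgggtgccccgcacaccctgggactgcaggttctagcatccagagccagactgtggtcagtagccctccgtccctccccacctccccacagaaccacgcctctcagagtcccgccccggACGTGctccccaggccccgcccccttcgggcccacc
Enkur, chr2:21205366-21205615, minus strand: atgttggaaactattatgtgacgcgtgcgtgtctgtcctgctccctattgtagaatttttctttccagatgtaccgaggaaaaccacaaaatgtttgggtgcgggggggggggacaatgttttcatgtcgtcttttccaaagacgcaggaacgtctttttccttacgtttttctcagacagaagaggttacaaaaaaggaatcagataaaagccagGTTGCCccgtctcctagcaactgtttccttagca
Cfap44, chr16:44394549-44394798, plus strand: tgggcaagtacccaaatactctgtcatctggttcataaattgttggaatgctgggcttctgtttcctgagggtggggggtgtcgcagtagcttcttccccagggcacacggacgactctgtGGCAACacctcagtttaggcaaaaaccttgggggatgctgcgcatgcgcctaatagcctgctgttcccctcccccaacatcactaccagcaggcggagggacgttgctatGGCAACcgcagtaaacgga
The Bnip3 match is a palindrome read on both strands, and Slc16a3 holds 2 copies close to the start. In these genes the differences between culture and fetus were 2.51, 2.39, 2.35, 1.43, 2.26 and 2.24, in the order shown.

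Stress and metabolic lists gave smaller sets. Over all genes, 2.98% were higher and 4.37% lower by 2-fold or more in the CORIN+ pair. Of 20 p53 targets, 6 were higher by 2-fold or more in culture, none was lower by 2-fold or more and the median was 0.52, and the CORIN- pair gave the same counts with a median of 0.50. Eda2r was at 9.28 in ESC CORIN+, 6.48 in VM CORIN+, 9.81 in ESC CORIN- and 6.88 in VM CORIN- cells. Tnfrsf10b, a death receptor, Phlda3, an AKT inhibitor, Ccng1, a cyclin, Perp and Plk2 differed by 1.66, 1.39, 1.21, 1.19 and 1.08. Mdm2, the feedback regulator of p53, was within 2-fold (0.28). Of 35 amino acid and ER stress genes (median 0.08), 5 were higher by 2-fold or more and 2 lower by 2-fold or more, namely Stc2 (1.63), Vldlr (1.53), Sesn2 (1.32), Asns (1.04) and Slc7a3 (1.004) against Aldh1l2 (-1.19) and Nupr1 (-1.05), while Atf4 and Ddit3 differed by -0.38 and 0.08. Of 26 oxidative stress genes (median -0.0007), 2 were higher by 2-fold or more, Gsta4 (1.98) and Gsr (1.23), and the lowest was Hmox1 (-0.82). Of 29 cholesterol genes (median 0.18), 3 were higher by 2-fold or more, Mylip (1.28), Srebf1 (1.24) and Scd1 (1.17), while the synthesis enzymes Hmgcs1, Sqle and Fdft1 were within 2-fold (0.13, -0.29 and -0.16).

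Genes of the undifferentiated ESC were near the fetal level in ESC CORIN+ cells. Of 33 pluripotency genes, 4 were higher by 2-fold or more in ESC CORIN+ than in VM CORIN+ cells and the median was 0.12, while 16 were higher by 2-fold or more in the CORIN- pair (median 0.95). Nanog was at 6.90 in ESC CORIN+, 6.73 in VM CORIN+, 9.50 in ESC CORIN- and 6.93 in VM CORIN- cells. Pou5f1, also known as Oct-4, was at 6.46 in ESC CORIN+, 6.16 in VM CORIN+, 8.06 in ESC CORIN- and 6.25 in VM CORIN- cells. Dppa5a was at 7.16 in ESC CORIN+, 6.89 in VM CORIN+, 10.58 in ESC CORIN- and 6.78 in VM CORIN- cells. In each of the 3, ESC CORIN- cells alone had the raised signal. The 4 genes higher in ESC CORIN+ cells were Klf5 (1.65), Sall4 (1.52), Trim71 (1.24) and Lin28a (1.17), of which the RNA-binding Lin28a and the ubiquitin ligase Trim71 are also known from early neural progenitors.

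Secreted and surface factors differed in both directions between the 2 CORIN+ arrays. The shares over all genes were 2.98% higher and 4.37% lower by 2-fold or more. Of 16 IGF genes (median 0.03), 3 were higher by 2-fold or more in culture, Igfbp3 (2.42), Igfbp5 (1.52) and Igfbp2 (1.11). Another 3 were lower by 2-fold or more, Igf1 (-3.42), Igfbp4 (-1.72) and Igfbp7 (-1.28). In the CORIN- pair these 3 lower genes were within 2-fold, at -0.40, 0.02 and -0.30, while the 3 higher ones were higher by 2-fold or more there too. Igf1 was at 6.79 in ESC CORIN+, 10.21 in VM CORIN+, 7.41 in ESC CORIN- and 7.81 in VM CORIN- cells, raised in VM CORIN+ cells alone. Of 20 retinoid genes (median -0.05), 4 were higher by 2-fold or more, with Rbp4 followed by the nuclear receptor Rxrg at 9.79 in ESC CORIN+, 7.58 in VM CORIN+, 10.05 in ESC CORIN- and 7.33 in VM CORIN- cells, the retinal reductase Dhrs3 (1.20) and the receptor Rara (1.03). The cytoplasmic binding proteins Crabp1 and Fabp5 went the other way (-2.44 and -1.04). Of 52 adhesion and guidance genes (median -0.27), 6 were higher by 2-fold or more and 17 lower by 2-fold or more. The secreted guidance cues Sema3d (2.43), Slit3 (1.67), Ntn1 and Slit1, the receptor Nrp2 (1.14) and the cadherin Cdh6 (1.51) were the 6 that were higher. The axonal molecules Cntn2 and L1cam and the receptors Robo3, Robo1 and Dcc were lower (-3.32, -1.93, -2.18, -1.74 and -1.51), as was the cue Draxin (-2.41).

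A microRNA gene was among the 20 highest. Of 297 miRNA genes measured, Mir218-1 was the 1 that was higher by 2-fold or more in culture, 5 were lower by 2-fold or more and 291 differed by less. Both shares were smaller than those over all genes, 2.98% higher and 4.37% lower. Mir218-1 was at 10.96 in ESC CORIN+, 8.13 in VM CORIN+, 9.94 in ESC CORIN- and 7.26 in VM CORIN- cells. It lies within Slit2 on chromosome 5 (GRCm38.p6), whose chosen cluster was at 13.35 in ESC CORIN+, 12.62 in VM CORIN+, 13.003 in ESC CORIN- and 11.15 in VM CORIN- cells. Mir218-2, within Slit3 on chromosome 11, had a difference of 0.85, and Slit3 one of 1.67. Mir9-1, 1 of the 5 lower, was at 6.75 in ESC CORIN+, 7.84 in VM CORIN+, 6.76 in ESC CORIN- and 7.72 in VM CORIN- cells, and miR-9 is known as a microRNA of neural progenitors and neurons. Array signals of these genes come from labelled total RNA and do not measure the mature microRNA. RefSeq held a mature sequence for 271 of the 297. The 5p arms of these genes are shown with the seed, bases 2 to 8, in capitals, because Mir218-1 and Mir218-2, in different Slit genes, give the same arm and so the same seed.
miR-218-5p (Mir218-1, chr5:48223966-48223986, and Mir218-2, chr11:35616840-35616860, plus strand): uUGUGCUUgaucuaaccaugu
miR-9-5p (Mir9-1, chr3:88215613-88215635, plus strand): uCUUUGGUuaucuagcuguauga

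Imprinted, sex-linked and antigen presentation genes showed single large differences. Of 35 imprinted genes, 4 were higher by 2-fold or more and 6 lower by 2-fold or more, with a median of 0.00. The shares over all genes were 2.98% higher and 4.37% lower. Cdkn1c, a growth-restraining cell cycle inhibitor, was at 8.66 in ESC CORIN+, 11.36 in VM CORIN+, 8.75 in ESC CORIN- and 11.43 in VM CORIN- cells. Dlk1 and Meg3, reciprocally imprinted neighbours, were both lower (-2.26 and -1.27), and Airn, Zim1 and Magel2 differed by -1.32, -1.20 and -1.06. Cobl, Peg3, Usp29 and Impact were higher (1.37, 1.20, 1.19 and 1.01), and Igf2 was within 2-fold (0.22). Of 11 sex-linked genes, none was higher and Xist and Kdm5d were lower by 2-fold or more. Xist, transcribed from the inactive X of female cells, was at 6.09 in ESC CORIN+, 11.92 in VM CORIN+, 6.08 in ESC CORIN- and 11.79 in VM CORIN- cells. The Y-linked genes Eif2s3y and Uty were at 10.75 and 9.96 in ESC CORIN+ and at 10.09 and 9.17 in VM CORIN+ cells. The fetal array therefore holds Xist and Y-linked signals together and the ESC array Y-linked signals with Xist low. A further Y-linked gene, Kdm5d, was at 6.45 in ESC CORIN+, 9.55 in VM CORIN+, 6.72 in ESC CORIN- and 9.67 in VM CORIN- cells, against the direction of the other 2. Of 28 antigen presentation and interferon genes (median -0.09), H2-Ab1 (1.68) and H2-Q4 (1.37) were higher by 2-fold or more and none was lower by 2-fold or more, with B2m lowest at -0.97.

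**Figure D4:**
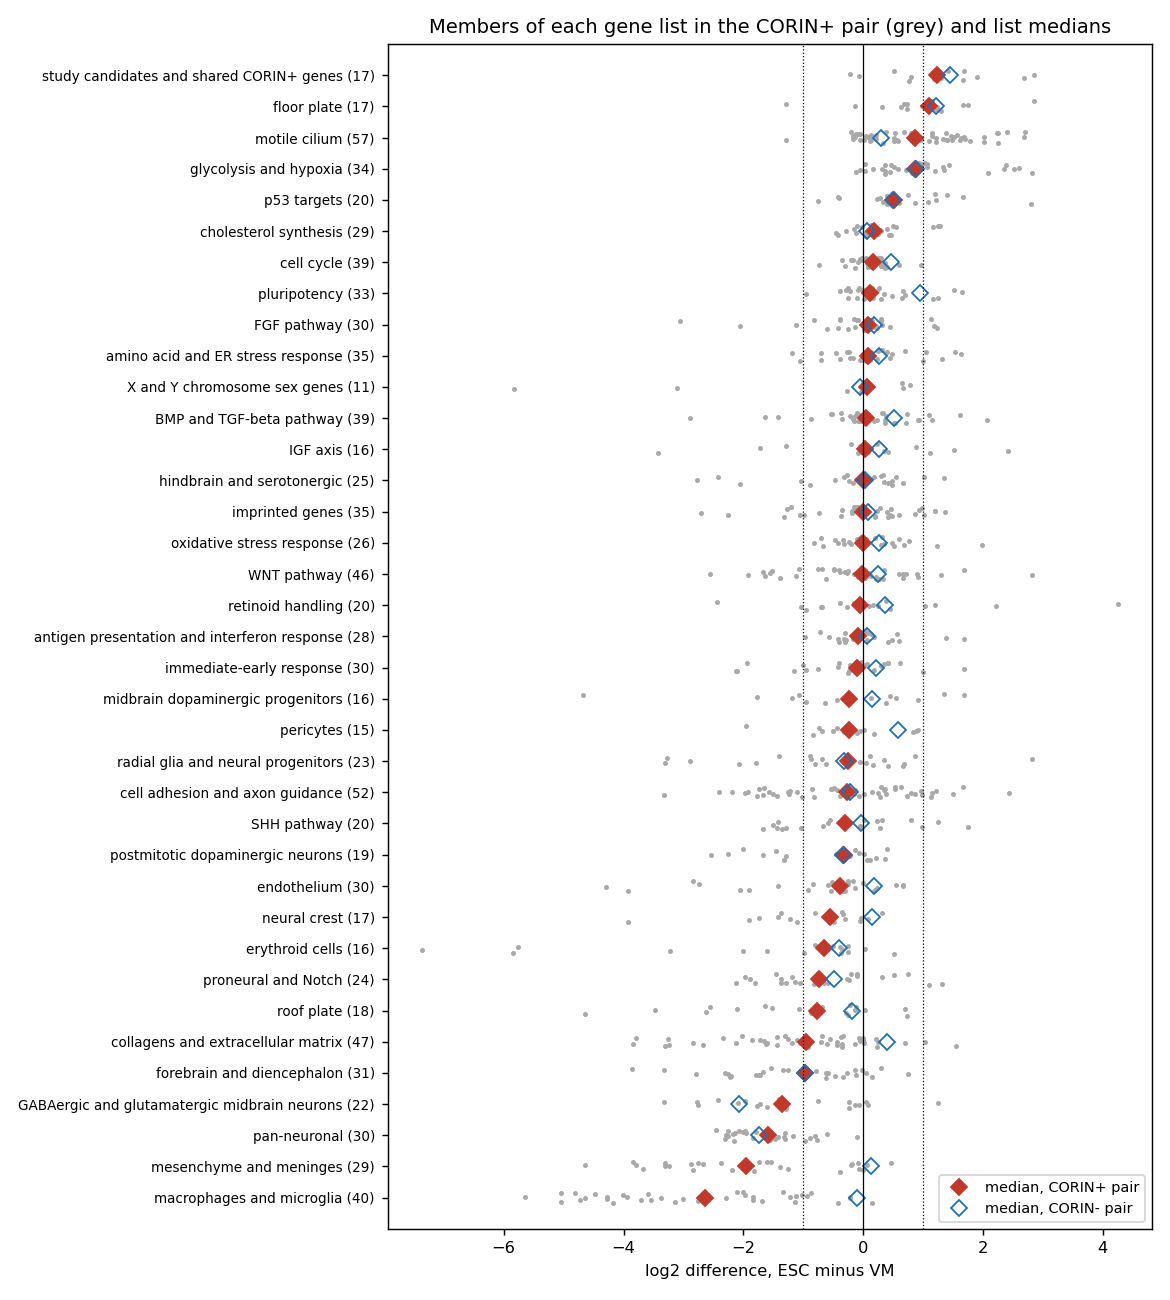
Log2 difference, ESC minus VM, of each measured member of the 37 gene lists in the CORIN+ pair (grey points) with the list medians of the CORIN+ pair (filled red) and of the CORIN- pair (open blue); numbers in parentheses are members measured and dotted lines mark 2-fold. The 2 medians lie close for neuronal, glycolysis and forebrain genes and far apart for macrophage, mesenchyme and matrix genes.

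The 2 pairs were then set against each other. They share no array, but both compare cells of the same knock-in ESC line at day 9 with cells of E11.5 VM. Source, strain and stage differ in both pairs alike, so agreement between the pairs is no independent evidence. Of the 594 genes higher by 2-fold or more in culture in the CORIN+ pair, 381 were also higher by 2-fold or more in the CORIN- pair, which is 64.1% of the first list and 42.1% of the second. Of the 872 lower, 416 were lower in both, 47.7% of the first list and 59.3% of the second. Across genes, which are not independent replicates, the differences of the 2 pairs had a Pearson r of 0.677. For 722 genes the difference of the CORIN+ pair lay at least 1 log2 unit below that of the CORIN- pair, and for 125 at least 1 above. The macrophage, mesenchyme and matrix lists had medians of -2.64, -1.95 and -0.96 against -0.11, 0.13 and 0.39 in the CORIN- pair. The glycolysis list, the p53 targets and the forebrain list had nearly equal medians in the 2 pairs, 0.87 and 0.89, 0.52 and 0.50, and -0.97 and -0.96. No gene was higher by 2-fold or more in culture in the CORIN+ pair and lower by 2-fold or more in the CORIN- pair, and 14 were the reverse. Across clusters the ESC CORIN- and VM CORIN- arrays correlated at 0.967, and the 2 CORIN+ arrays at 0.968. The closest of the culture and fetus combinations was ESC CORIN- with VM CORIN+, at 0.975, and the least close ESC CORIN+ with VM CORIN-, at 0.960.

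**Figure D5:**
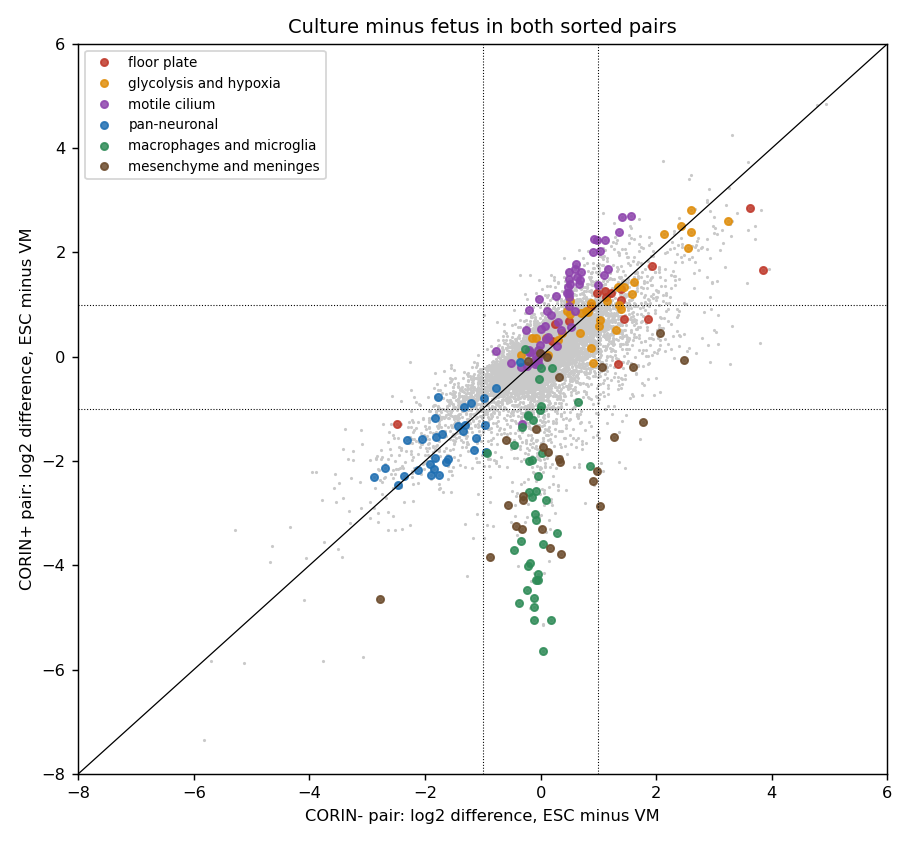
Log2 difference, ESC minus VM, of each gene in the CORIN- pair (horizontal) and the CORIN+ pair (vertical), with 6 gene lists in colour; the solid line marks equal differences and the dotted lines 2-fold. Most neuronal and glycolysis genes lie near the line, most cilium genes lie above it, and most macrophage genes drop straight down near 0 of the horizontal axis.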

How the data were processed

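Total RNA of 4 sorted populations, 1 sample each, was amplified with a whole-transcript kit before hybridisation to Affymetrix whole-transcript mouse arrays. The authors processed the scans in GeneSpring and deposited 1 log2 signal per transcript cluster and array. How they corrected background, summarized probes and normalized between arrays, and on which genome build, was not given in the sources used here. Scans were not analysed here. The number of arrays, 1 per population, limits precision, and no test, error or p-value could be had.

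Clusters were named through the platform's annotation, with symbols updated through gene identifiers. Of 28856 clusters, 21789 had 1 symbol, 1621 several and 5446 none. Where a gene had several clusters (999 genes), the one with the highest mean signal over both CORIN+ arrays was used in every comparison. The deposited log2 values were subtracted as they stand, with Python 3.11.15, numpy 2.4.6 and pandas 2.3.3, after tests on simulated data.

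Of 1102 entries in 37 gene lists, 1036 were measured. Members and lists were chosen with earlier results of these data known. Genes were named by rule: the 20 highest and 20 lowest, up to 5 members of a list furthest in the direction of its median, members past 2-fold the other way, cell type markers, and a list of 17 genes (the study's 16 shared CORIN+ genes and Apela). Others, such as Th, Ddc, Pitx3, Ptch1, Gli1, Axin2, Dbx1, Barhl2, Pdk1, Pkm, Car9, Mdm2, Atf4, Igf2, Mir218-2 and Mir9-1, were chosen after their values were seen. The alternatives were 2 quantile normalizations, centring, 2 filters on dim clusters, averaging the clusters of each gene, 32 added to the linear signal, and thresholds of 1.5-fold and 3-fold.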

Additional observations from a re-analysis of the deposited data

Results flagged for a closer look

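For 14 genes the difference between culture and fetus had opposite directions in the 2 pairs, lower in culture by 2-fold or more among CORIN+ cells and higher by 2-fold or more among CORIN- cells. With 1 array per population the difference between the pairs was not tested.

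The difference of the CORIN+ pair minus that of the CORIN- pair was -3.90 for Foxc2 and -3.59 for Foxf2, forkhead factors of mesenchyme, and -2.80 for Prrx1, a mesenchymal homeobox factor. Among matrix genes it was -3.39 for the fibrillin Fbn2, -3.27 for Hmcn1, -3.01 for the proteoglycan Dcn, -2.80 for Hapln1 and -2.64 for Egflam. It was -3.28 for the protease Ctsc, -3.09 for the lipid carrier Apoe, -2.60 for the blood cell factor Runx1 and -2.41 for Tmem119. The remaining pair-to-pair differences were -2.57 for Anxa3 and -2.34 for Ehd4. Foxc2 was at 7.78 in ESC CORIN+, 10.65 in VM CORIN+, 9.47 in ESC CORIN- and 8.44 in VM CORIN- cells. Apoe was at 10.34 in ESC CORIN+, 12.38 in VM CORIN+, 10.72 in ESC CORIN- and 9.68 in VM CORIN- cells. For both genes VM CORIN+ and ESC CORIN- cells had the higher signals, and these genes were named because of this pattern.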

How the results depend on the processing

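Quantile normalization of the arrays compared or of all 4, centring, averaging the clusters of each gene and the 20th-percentile filter moved no count by over 1.5 times and no list median further than the scaled median absolute deviation of its pair. Among 74 list medians (37 in each pair), 72 kept their sign under centring, 66 under the 50th-percentile filter and all 74 under the other alternatives, and those of at least 1 in size never changed sign. Both percentile filters keep members that differ through the array where they are high. What holds under either filter therefore says nothing about stability. The threshold sets the counts by construction. At 1.5-fold, 1729 clusters and 1571 genes were higher and 1770 clusters and 1611 genes lower in the CORIN+ pair, 2068 genes higher and 1432 lower in the CORIN- pair, and 1051 higher and 864 lower in both. At 3-fold these counts were 224, 195, 438, 414, 313, 291, 112 and 160 in the same order.

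With only clusters above the 50th percentile in at least 1 of the arrays compared, members that differ pass through the array where they are high, so medians can move away from 0 by construction and say nothing about stability. List medians of the CORIN+ pair became -0.88 for postmitotic dopaminergic, -1.10 for proneural and Notch, 1.496 for motile cilium, -1.44 for forebrain, -0.89 for hindbrain, -1.66 for GABAergic and glutamatergic, -1.52 for roof plate, -1.21 for neural crest, -1.66 for endothelial, -2.61 for erythroid, -3.26 for macrophage, -0.59 for SHH pathway and 0.30 for antigen presentation genes. In the CORIN- pair they became 0.63 for motile cilium, -1.57 for hindbrain, -2.42 for GABAergic and glutamatergic, 1.45 for pericyte, -0.42 for neural crest, -1.04 for erythroid, 0.97 for antigen presentation and 0.89 for retinoid genes. With 32 added to the linear signal, the macrophage median of the CORIN+ pair was -2.35. Over all alternatives, 496 list medians moved by at most that deviation and 22 by more, and for named genes 3300 and 71 did.

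Low signals have no detection call here, so a large difference from a signal near 6 is one from a level that cannot be told from background.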

Other observations

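Of 5446 clusters with no symbol, 83 were higher and 126 lower in ESC CORIN+ than in VM CORIN+ cells by 2-fold or more, and of 1621 clusters with several symbols, 35 and 26 were. Of the 21789 clusters used in the comparison, 662 were higher and 962 lower by 2-fold or more. The clusters left out therefore had smaller shares in both directions. Among bright genes, the median difference of the CORIN+ pair per chromosome lay between 0.02 and 0.16 over 20 chromosomes.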
